A study of Homo sapiens with 12 samples.

Results

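The bone metastasis regulators described here are 10 genes for factors through which tumour cells act on bone: PTHLH, IL11, CXCR4, JAG1, DKK1, TGFB1, TGFB2, TNFRSF11B, SPARC and RUNX2. They were taken by gene name from the authors' table of 57905 genes, where they matched 11 entries. The extra entry was a noncoding transcript that carries the name JAG1 and lies inside that gene, with 3 counts over all 12 libraries, and it was set aside. Of the 10 protein-coding entries, 9 passed the filter on low counts that 15142 genes passed. The exception was PTHLH, which had 2 to 11 counts in each library and is described from its counts and from a fit without that filter.

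Breast cancer often spreads to bone, where tumour cells and bone cells stimulate each other. Tumour-derived PTHrP (the protein of PTHLH) and interleukin-11 make osteoblast-lineage cells produce RANK ligand, which drives osteoclast formation, and osteoclasts release stored TGF-beta from the matrix, which acts back on the tumour cells. JAG1 is a Notch ligand that TGF-beta induces in bone-seeking tumour cells, DKK1 blocks Wnt signals that osteoblasts need, and osteoprotegerin (TNFRSF11B) is a decoy that binds RANK ligand. CXCR4 guides cells toward CXCL12 in the marrow, SPARC is a matrix protein abundant in bone, and RUNX2 is the osteoblast transcription factor that breast cancer cells can also express.

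MDA-MB-231 cells, a triple-negative human breast cancer line used as a model of bone metastasis, were grown in dishes without bone cells. The labels give 4 groups of 3 libraries, all collected after 48 h. Control cells received the solvents DMSO and water (vehicle), and the others received SFN at 1 µM, ZA at 0.5 µM, or both at these doses (SFN+ZA). SFN and ZA are usual abbreviations of sulforaphane and zoledronic acid, a bisphosphonate drug given to patients with bone metastases, but the labels do not spell them out. The compounds thus met tumour cells alone. Replicates were dishes plated in triplicate, and the labels do not say whether these came from independent cultures, so the spread behind each p-value may be that between dishes of 1 plating.

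Libraries held 15265377 to 25351286 gene counts. The line's markers VIM, CD44, EGFR, KRT18 and AXL were present in all libraries, with VIM at 185 to 440 FPKM (fragments scaled to gene length and library size). Of 4 genes low or absent in such lines, PGR had 0 counts and ESR1 at most 2, while CDH1 had a median of 0.296 FPKM and ERBB2 of 9.18 FPKM. The osteoclast genes OCSTAMP and DCSTAMP and the osteoblast genes SP7 and DMP1 had 0 counts. The summed level of the 4 osteoclast markers was 0.419 to 1.31 FPKM, nearly all from CALCR, and that of the 4 osteoblast markers at most 0.421 FPKM. In vehicle 2 and SFN 2, transcripts rich in G and C were low: over 14687 genes, the Spearman correlation of GC content with a gene's log2 difference to its median library was -0.602 and -0.806. It ran from -0.458 to 0.640 in the other 10 libraries, and was -0.418 and -0.421 in SFN 1 and 3 but 0.223 to 0.640 in SFN+ZA. Results are therefore given for all 12 libraries, for the 10 without vehicle 2 and SFN 2, and with an offset that removes each library's trend with GC content. In the fit of all 12 libraries, edgeR's quasi-likelihood test called 0 genes (0.0% of 15142) at a Benjamini-Hochberg adjusted p under 0.05 in each of 8 comparisons. The unadjusted p was under 0.05 for 159 to 3312 genes, and DESeq2 called 21 genes in SFN+ZA against vehicle (0.139%), 6 in SFN+ZA against SFN (0.0396%), 15 for the main effect of ZA (0.0991%) and 0 in the others. None of the 72 tests of a regulator passed with either tool, and 7 had an unadjusted p under 0.05 with each.

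Per length, DKK1 was the most abundant of the regulators by a wide margin. In vehicle it measured 165, 206 and 160 FPKM, and no other regulator exceeded 51.3 FPKM there. TGFB2 (37.5 to 45.0 FPKM) and TGFB1 (15.9 to 51.3) came next and overlapped. RUNX2 measured 11.2 to 12.8 FPKM, IL11 5.05 to 11.2 and JAG1 9.49 to 9.81, the values of JAG1 falling inside those of IL11 and the lowest of RUNX2 lying just above the highest of IL11. CXCR4 followed at 1.70 to 2.45 FPKM, then TNFRSF11B at 0.506 to 0.633, SPARC at 0.132 to 0.251 and PTHLH at 0.0688 to 0.0981, and these ranges did not overlap. The line thus carried an abundant Wnt antagonist and both TGF-beta ligands, while the osteoprotegerin, SPARC and PTHrP transcripts were each below 1 FPKM in every library.

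**Figure D1:**
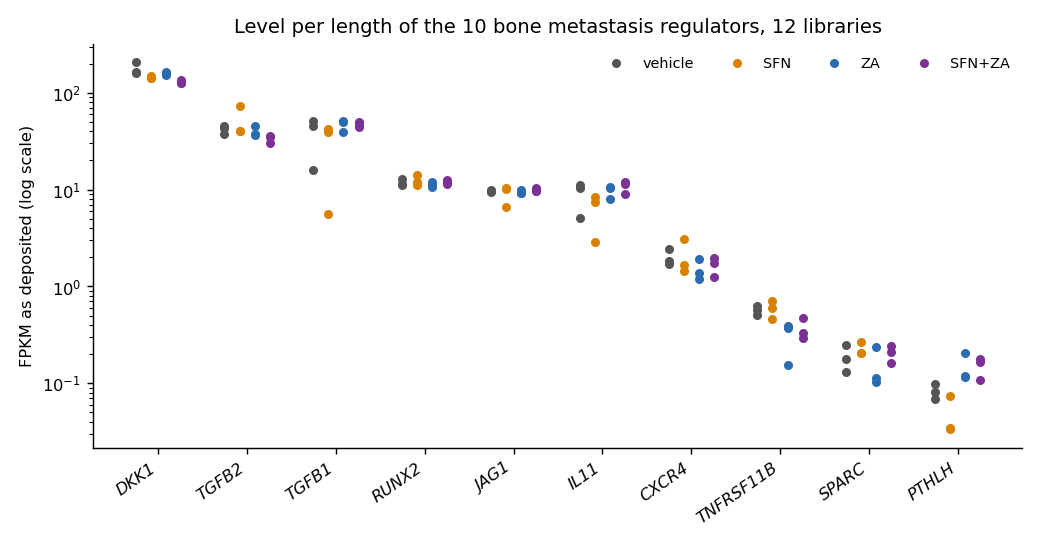
Deposited FPKM of the 10 regulators in each of the 12 libraries, on a log axis, ordered by the mean in vehicle. Each point is 1 library and colours mark the 4 groups. DKK1 lies above all others in every library, and TGFB1 and IL11 each have 1 low vehicle point (15.9 and 5.05 FPKM, vehicle 2) and 1 low SFN point (5.61 and 2.89 FPKM, SFN 2).

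PTHLH and IL11 encode the secreted factors that raise osteoclast formation. Their promoters are shown because these are the tumour-derived signals that start bone breakdown in the textbook scheme. The sequences are the 250 bases before the start site in RefSeq (GRCh38.p14), for PTHLH chr12:27969977-27970226 and for IL11 chr19:55370464-55370713, both minus strand and written 5′ to 3′. Capitals mark a SMAD box (CAGACA) in PTHLH and an AP-1 site (TGAGTCA) in IL11.
PTHLH: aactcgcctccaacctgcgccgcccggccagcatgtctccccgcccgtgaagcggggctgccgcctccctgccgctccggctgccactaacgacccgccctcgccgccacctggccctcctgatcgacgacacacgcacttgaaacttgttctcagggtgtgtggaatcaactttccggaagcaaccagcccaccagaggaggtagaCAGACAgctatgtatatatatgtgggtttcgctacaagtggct
IL11: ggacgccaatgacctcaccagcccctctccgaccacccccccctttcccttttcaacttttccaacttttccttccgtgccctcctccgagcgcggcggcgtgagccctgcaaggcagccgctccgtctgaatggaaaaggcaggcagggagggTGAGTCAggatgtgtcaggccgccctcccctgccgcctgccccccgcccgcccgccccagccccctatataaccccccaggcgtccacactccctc
Here and below, 7 motifs were searched on both strands of 12 such windows that matched 9 of the regulators. Of all 35116 RefSeq promoters, 6.57% held AP-1 (TGANTCA), 10.9% the antioxidant response element core (TGACNNNGC), 11.9% TEAD (GGAATG), 11% RUNX (TGTGGT), 2.26% TCF/LEF (ATCAAAG), 13.6% SMAD (CAGACA) and 10.7% a TATA box (TATAAA). A match is a description of the letters and not evidence of binding.

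PTHLH (ENSG00000087494, GRCh37/hg19 chromosome 12, 28111017 to 28125638) was at the edge of detection and higher in every library treated with ZA. Its counts were 5, 5 and 4 in vehicle, 4, 2 and 2 in SFN, 8, 10 and 11 in ZA, and 10, 10 and 6 in SFN+ZA. In CPM (counts scaled to a common library size) these were 0.333, 0.281 and 0.239, then 0.258, 0.113 and 0.122, then 0.416, 0.397 and 0.697, and then 0.603, 0.568 and 0.371. All 6 libraries with ZA lay above all 6 without it, an arrangement also found in 0.503% of the 29442 genes with any count. Summed over libraries, 22 counts without ZA gave 0.222 CPM (exact Poisson 95% interval 0.139 to 0.336) and 55 counts with ZA gave 0.497 CPM (0.375 to 0.647), intervals that cover counting error only. An exact two-sided permutation of libraries within SFN status gave p = 0.005, the smallest its 400 arrangements allow, for a difference of 0.48 in log2(CPM + 0.5). It is 1 of 20 such tests (10 genes, 2 main effects), unadjusted, on genes chosen with earlier results known. Without vehicle 2 and SFN 2, which leaves 100 arrangements, the exact permutation p was 0.02. In the fit across all genes without the filter the log2 fold change for the main effect of ZA was 1.21 ± 0.50 (SE) and did not pass (edgeR adjusted p = 0.44). In the unfiltered fit ZA alone against vehicle and SFN+ZA against vehicle did not pass either, although their groups did not overlap (background 3.87% and 8.32% of 29442 genes, higher).

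IL11 (ENSG00000095752, chromosome 19, 55875757 to 55881831) was expressed in every library at 137 or more counts. It measured 30.04, 13.8 and 28.4 CPM in vehicle, 23.3, 7.77 and 20.7 in SFN, 21.9, 28.4 and 28.8 in ZA, and 32.4, 24.4 and 30.8 in SFN+ZA. The lowest values in their groups were vehicle 2 and SFN 2, the libraries that stand apart. All SFN+ZA libraries exceeded all SFN libraries, as did 23.4% of the 15142 genes tested. The log2 fold change of SFN+ZA against SFN was 0.76 ± 0.39 (edgeR adjusted p = 0.25) with 12 libraries and 0.40 ± 0.15 (0.18) with 10. It was 0.10 ± 0.11 (0.62) with 10 libraries and the GC offset. The IL11 transcript holds 62.4% GC. It deviated by -1.04 in vehicle 2 and -1.85 in SFN 2 (log2 CPM against the median of the other 10 libraries), and genes within 1 percentage point of its GC content had medians of -1.08 and -2.61 there. After removal of the trend its 3 SFN+ZA values, 19.6 to 23.8 CPM, overlapped those of vehicle and ZA together, 19.8 to 25 CPM. SFN 3 was the lowest library at 19.2 CPM, SFN 1 measured 21.2 CPM, and SFN 2 became the highest at 37.0 CPM. With 12 libraries the main effect of SFN was -0.17 ± 0.27 in log2 and that of ZA 0.45 ± 0.27, and neither passed (edgeR adjusted p = 0.99 and 0.33). Both estimates turned with the GC offset on 12 libraries, to 0.086 ± 0.14 and -0.20 ± 0.14, and with 10 libraries and the offset they were -0.063 ± 0.075 and -0.038 ± 0.075.

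TGFB1 and TGFB2 encode ligands of the same receptors, and TGF-beta released from bone is the signal that feeds back on tumour cells. TGFB1 (ENSG00000105329, chromosome 19, 41807492 to 41859816) followed IL11. It measured 167, 52.4 and 149.5 CPM in vehicle, 141, 18.3 and 132 in SFN, 130.4, 163 and 166 in ZA, and 163, 148 and 154 in SFN+ZA. Vehicle 2 and SFN 2 were far below the rest, and the other 10 libraries all lay between 130.4 and 167 CPM. The deviation was -1.53 in vehicle 2 and -3.05 in SFN 2, where genes of like GC content (58.8%) had medians of -0.64 and -1.85. SFN against vehicle gave a log2 fold change of -0.34 ± 0.60 with 12 libraries (edgeR adjusted p = 0.83), -0.22 ± 0.12 with 10 (0.52) and -0.05 ± 0.07 with 10 and the GC offset (0.80). SFN+ZA against SFN changed from 0.68 ± 0.60 to -0.05 ± 0.06 between the first and the last of these. The TGFB1 gene overlaps HNRNPUL1, CCDC97 and TMEM91 on the other strand, which together held 79395 counts, and without a stated strand setting its count is uncertain.

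TGFB2 (ENSG00000092969, chromosome 1, 218519577 to 218617961), at 39.9% GC, had the opposite pattern. It measured 194, 227 and 238 CPM in vehicle, 213, 382 and 213 in SFN, 242, 197 and 189.7 in ZA, and 157, 189 and 183 in SFN+ZA. SFN 2 was the highest library, and the 3 SFN+ZA libraries were below all 9 others. SFN+ZA was thus below vehicle without overlap, as were 9.63% of the genes tested, below SFN (23.7%) and below ZA (5.77%). After removal of the GC trend SFN+ZA, at 191 to 200.5 CPM, stayed below ZA but overlapped vehicle 2 (193 CPM) and SFN 3 (198 CPM). In SFN 2 TGFB2 deviated by 0.96 and genes of like GC content by a median of 0.82. The log2 fold change of SFN+ZA against vehicle was -0.32 ± 0.22 with all 12 libraries and did not pass (edgeR adjusted p = 0.86). With 10 libraries and the GC offset it was -0.24 ± 0.06 and passed (0.031), as did the main effect of SFN at -0.20 ± 0.04 (0.024). The main effect of SFN is the mean of SFN and SFN+ZA minus the mean of vehicle and ZA. In that fit 0.853% of 15353 genes were called lower in SFN+ZA against vehicle, and 0.306% for the main effect of SFN. These calls were near the threshold. Leaving out 1 ZA or SFN+ZA library gave edgeR adjusted p of 0.010 to 0.12 for the first and 0.0056 to 0.089 for the second. Vehicle and SFN had 2 libraries each in that fit. Leaving out 1 of those left 1 library in the group, so only effect sizes are given for such fits. Over all 10 fits with 1 more library left out, the log2 fold change stayed between -0.26 and -0.21 for the first. For the second it stayed between -0.22 and -0.19. With 12 libraries the main effect of SFN was 0.02 ± 0.16 without the offset and -0.12 ± 0.07 with it (adjusted p = 0.94), and SFN+ZA against vehicle was -0.15 ± 0.10 with it (0.56). The replicate number, added as a block to the fit that made the calls, ended both (adjusted p = 0.12 each).

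**Figure D2:**
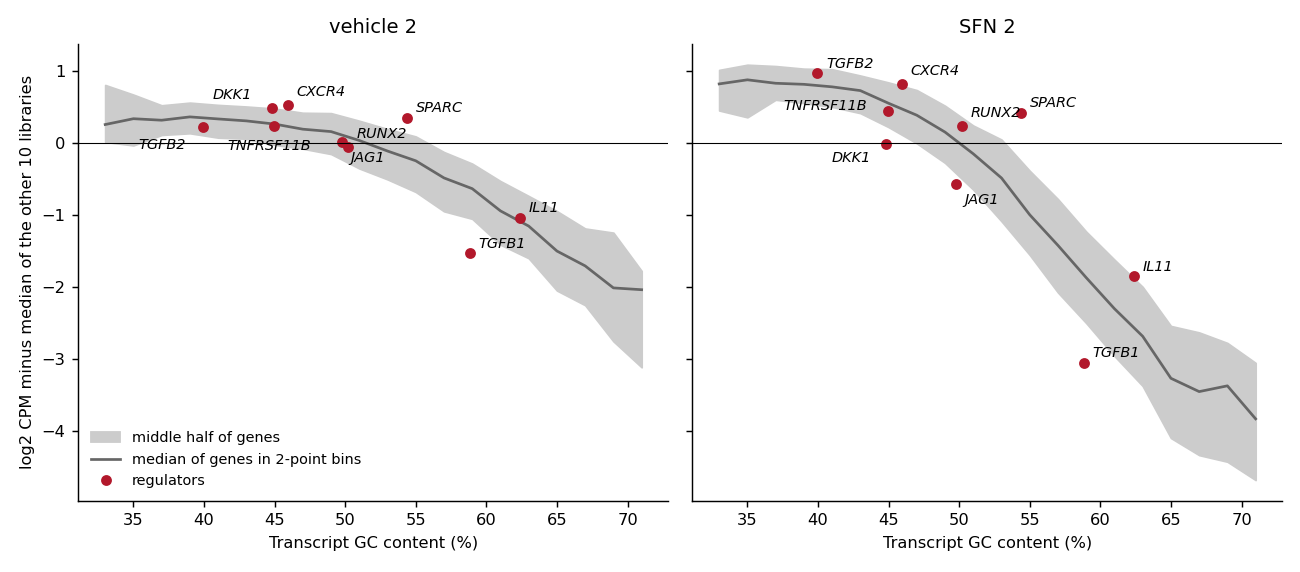
Deviation of each regulator in vehicle 2 and SFN 2 (log2 CPM minus the median of the other 10 libraries) against the GC content of its transcripts in percent. The grey line and band are the median and the middle 50% of all genes tested in bins 2 points wide, and red points are the 9 regulators that passed the filter. TGFB1 and IL11 lie low at high GC content (-3.05 and -1.85 in SFN 2) and TGFB2 lies high at low GC content (0.96).

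DKK1 (ENSG00000107984, chromosome 10, 54074056 to 54077802), a secreted antagonist that binds the Wnt co-receptors LRP5 and LRP6, was lower in every library that received SFN, alone or with ZA. It measured 366, 463 and 361 CPM in vehicle, 321, 328 and 325 in SFN, 377, 339 and 356 in ZA, and 303, 281 and 281 in SFN+ZA. All 6 libraries with SFN (281 to 328 CPM) lay below all 6 without it (339 to 463 CPM), an arrangement found in 0.198% of the 15142 genes tested. The 3 SFN libraries alone lay below the 3 vehicle libraries, as did 3.48% of genes. Vehicle 2 was the highest library. In RNA from whole dishes, a lower level in all cells and a loss from some of them cannot be told apart. An exact two-sided permutation of libraries within ZA status gave a difference of -0.29 in log2(CPM + 0.5) with p = 0.005, again the smallest the arrangements allow. Without vehicle 2 and SFN 2 the difference was -0.24 (exact p = 0.017, the smallest the 120 remaining arrangements allow). Leaving out any 1 library, with 200 arrangements, gave p of 0.005 to 0.01. The separation remained after each library's GC trend was removed, at 234 to 344 CPM with SFN and 360 to 408 without. In SFN 2 DKK1 deviated by -0.02, while genes of like GC content (44.8%) had a median of 0.56.

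The fit across all genes gave DKK1 a main effect of SFN of -0.30 ± 0.09 in log2, which did not pass adjustment over 15142 genes (edgeR unadjusted p = 0.0063, adjusted p = 0.99). SFN against vehicle gave -0.29 ± 0.13 and SFN+ZA against ZA -0.31 ± 0.13, so the estimate was nearly the same without and with ZA, and the interaction was -0.02 ± 0.18 (adjusted p = 0.97). SFN+ZA against vehicle gave -0.46 ± 0.13 (adjusted p = 0.86). The authors' deposited table lists -0.46 for that comparison with an adjusted p of 0.38, the lowest adjusted p of any regulator there. In that comparison their table has 44 of 24615 genes under 0.05, and 0 of the regulators. With 10 libraries and the GC offset, SFN+ZA against vehicle was -0.29 ± 0.08 (adjusted p = 0.048) and the main effect of SFN -0.27 ± 0.05 (0.026), and both passed. Leaving out 1 ZA or SFN+ZA library gave edgeR adjusted p of 0.018 to 0.20 for the first and 0.0049 to 0.12 for the second. Over all 10 fits with 1 more library left out, log2 fold changes were -0.37 to -0.21 and -0.31 to -0.23. In some of these fits vehicle or SFN had 1 library. With 10 libraries and no offset neither passed (0.11 and 0.27), nor with 12 libraries and the offset, at -0.32 ± 0.12 (0.37) and -0.36 ± 0.08 (0.75). Both calls also ended with the replicate number as a block in the fit that made them (0.19 and 0.10). For ZA, the main effect on DKK1 was -0.16 ± 0.09 with 12 libraries and -0.01 ± 0.05 with 10 and the offset (adjusted p = 0.30 and 0.93), and an exact permutation p of 0.02 was 0.07 without vehicle 2 and SFN 2, 0.07 without ZA 2 and 0.05 without ZA 3.

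DKK1 and TGFB2 were the regulators called lower with SFN in the offset fit, and their promoters are shown for that reason. The windows are chr10:52314031-52314280 and chr1:218345086-218345335 of GRCh38.p14 from RefSeq, both plus strand, and capitals mark the motif matches, which do not overlap.
DKK1: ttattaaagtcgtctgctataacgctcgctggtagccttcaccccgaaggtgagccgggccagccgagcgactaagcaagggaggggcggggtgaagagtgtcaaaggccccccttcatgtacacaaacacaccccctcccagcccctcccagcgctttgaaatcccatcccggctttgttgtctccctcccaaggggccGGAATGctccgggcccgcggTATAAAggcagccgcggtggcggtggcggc
TGFB2: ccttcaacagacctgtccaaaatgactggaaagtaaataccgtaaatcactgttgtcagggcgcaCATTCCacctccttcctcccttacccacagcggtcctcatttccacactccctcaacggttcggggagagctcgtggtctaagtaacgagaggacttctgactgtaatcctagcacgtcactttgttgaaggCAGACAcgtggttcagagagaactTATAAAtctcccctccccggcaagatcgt
The DKK1 window holds a TEAD match (GGAATG, 50 to 45 bases before the start site) and a TATA box (TATAAA, 30 to 25 bases before it). The TGFB2 window holds a TEAD match on the other strand (CATTCC, from 185 bases before the start site), a SMAD match (CAGACA, from 53) and a TATA box (from 29). A TEAD and a TATA match were thus found in both, against 11.9% and 10.7% of all promoters. TEAD matches also stood in the SPARC window and in 1 window of RUNX2, and a TATA box in 1 window of CXCR4, genes that were not called. Neither window holds the antioxidant response element core, and the windows of TGFB1 and JAG1 hold none of the 7 motifs. Across the 10 libraries the log2 CPM of DKK1 and TGFB2 had a Pearson r of 0.61, and across 12 of 0.28, points that share their libraries and GC trends.

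**Figure D3:**
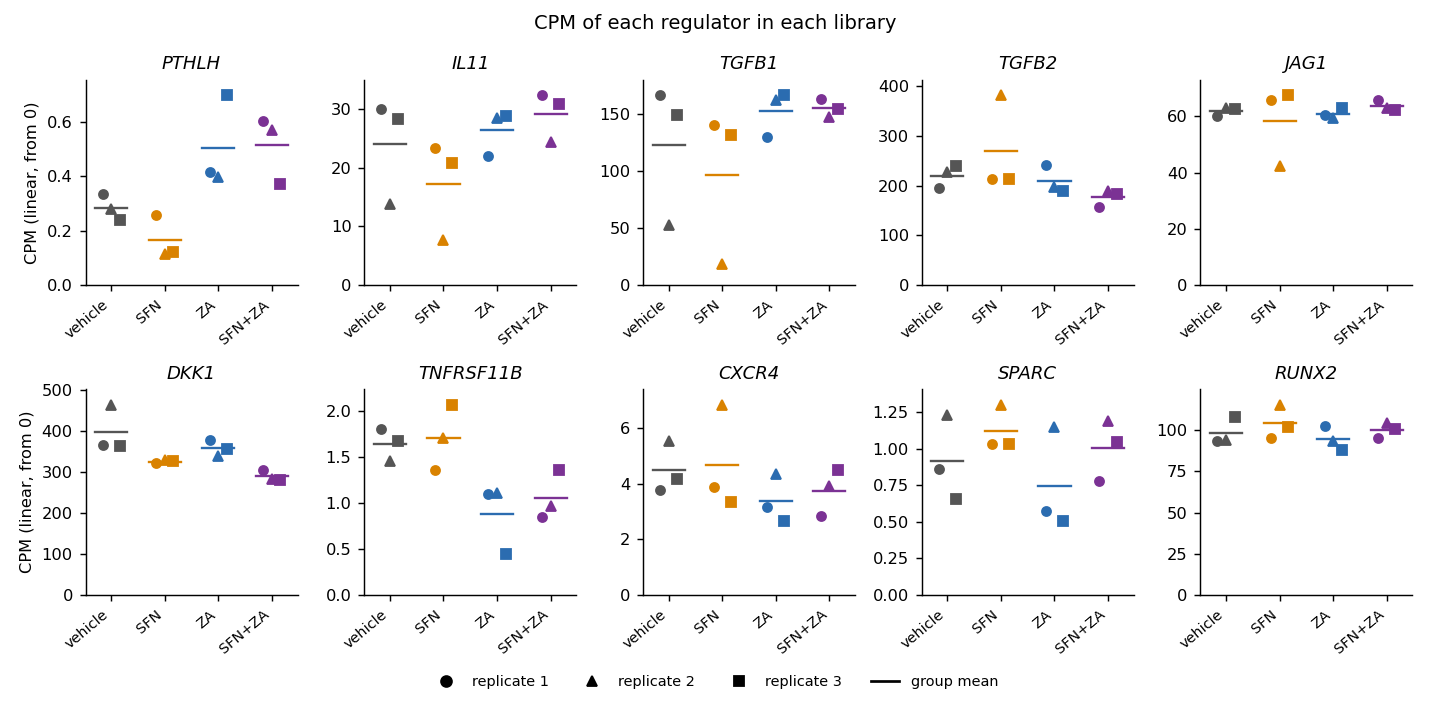
CPM of each regulator in each library on linear axes from 0. Symbols mark the replicate number, colours the group and bars the group mean. DKK1 is lower in all 6 libraries with SFN (281 to 328 CPM) than in the 6 without (339 to 463), and PTHLH is higher in all 6 with ZA at under 1 CPM.

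TNFRSF11B (ENSG00000164761, chromosome 8, 119935796 to 119964439), which encodes osteoprotegerin, was rare and lower where ZA was present. It measured 1.80, 1.46 and 1.67 CPM in vehicle, 1.36, 1.70 and 2.07 in SFN, 1.09, 1.11 and 0.444 in ZA, and 0.844, 0.966 and 1.36 in SFN+ZA, from 7 to 34 counts a library. The 3 ZA libraries lay below the 3 vehicle libraries, as did 3.05% of the genes tested, and SFN 1 and SFN+ZA 3 met at 1.36 CPM. The main effect of ZA was -0.78 ± 0.26 in log2 and did not pass (edgeR unadjusted p = 0.013, adjusted p = 0.28). It was -0.74 ± 0.29 with 10 libraries and the GC offset (adjusted p = 0.22). An exact two-sided permutation of libraries within SFN status gave p = 0.01, and p = 0.04 without vehicle 2 and SFN 2. ZA alone against vehicle was -0.87 ± 0.37 and SFN+ZA against vehicle -0.63 ± 0.37 (adjusted p = 0.98 and 0.86). The main effect of SFN was 0.15 ± 0.26. The ZA estimates of PTHLH and TNFRSF11B had opposite signs and neither passed, from at most 11 and 34 counts a library. The transcript of RANK ligand (TNFSF11), which osteoprotegerin binds, had 0 counts in all 12 libraries.

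JAG1 (ENSG00000101384, chromosome 20, 10618332 to 10654694), the Notch ligand, varied little outside SFN 2, between 59.3 and 67.6 CPM. It measured 60.0, 62.9 and 62.6 CPM in vehicle, 65.7, 42.3 and 67.6 in SFN, 60.6, 59.3 and 62.8 in ZA, and 66.0, 62.8 and 62.4 in SFN+ZA. The low value of SFN 2, a deviation of -0.57, was not shared by genes of like GC content (49.8%), whose median there was 0.04. SFN against vehicle was -0.08 ± 0.17 in log2 with 12 libraries (edgeR adjusted p = 0.85) and 0.11 ± 0.10 with 10 (0.64). RUNX2 (ENSG00000124813, chromosome 6, 45295894 to 45632086) stayed between 88.1 and 116 CPM, with group means ± SD of 98.4 ± 8.37 in vehicle, 104 ± 10.3 in SFN, 94.6 ± 7.43 in ZA and 99.96 ± 4.72 in SFN+ZA (SD over 3 libraries). Its main effect of SFN was 0.08 ± 0.09 and of ZA -0.06 ± 0.09 (adjusted p = 0.99 and 0.65), and it overlaps SUPT3H on the other strand.

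CXCR4 (ENSG00000121966, chromosome 2, 136871919 to 136875735), the receptor for CXCL12, measured 4.51 ± 0.927 CPM in vehicle, 4.69 ± 1.89 in SFN, 3.40 ± 0.873 in ZA and 3.75 ± 0.850 in SFN+ZA (SD over 3 libraries). Its highest libraries were SFN 2 (6.86 CPM) and vehicle 2 (5.56 CPM), and the groups overlapped in all comparisons. The main effect of ZA was -0.36 ± 0.23 in log2 with 12 libraries and -0.01 ± 0.18 with 10 and the GC offset (edgeR adjusted p = 0.33 and 0.98). SPARC (ENSG00000113140, chromosome 5, 151040657 to 151066726) had 8 to 29 counts a library and 0.507 to 1.3 CPM. Group means ± SD were 0.919 ± 0.293 CPM in vehicle, 1.12 ± 0.156 in SFN, 0.743 ± 0.354 in ZA and 1.01 ± 0.208 in SFN+ZA (SD over 3 libraries). For SFN, the main effect on SPARC was 0.35 ± 0.29 and did not pass (adjusted p = 0.99). Counts this low leave wide errors: the SE of 0.46 on SFN+ZA against vehicle with 10 libraries compares with 0.08 for DKK1.

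**Figure D4:**
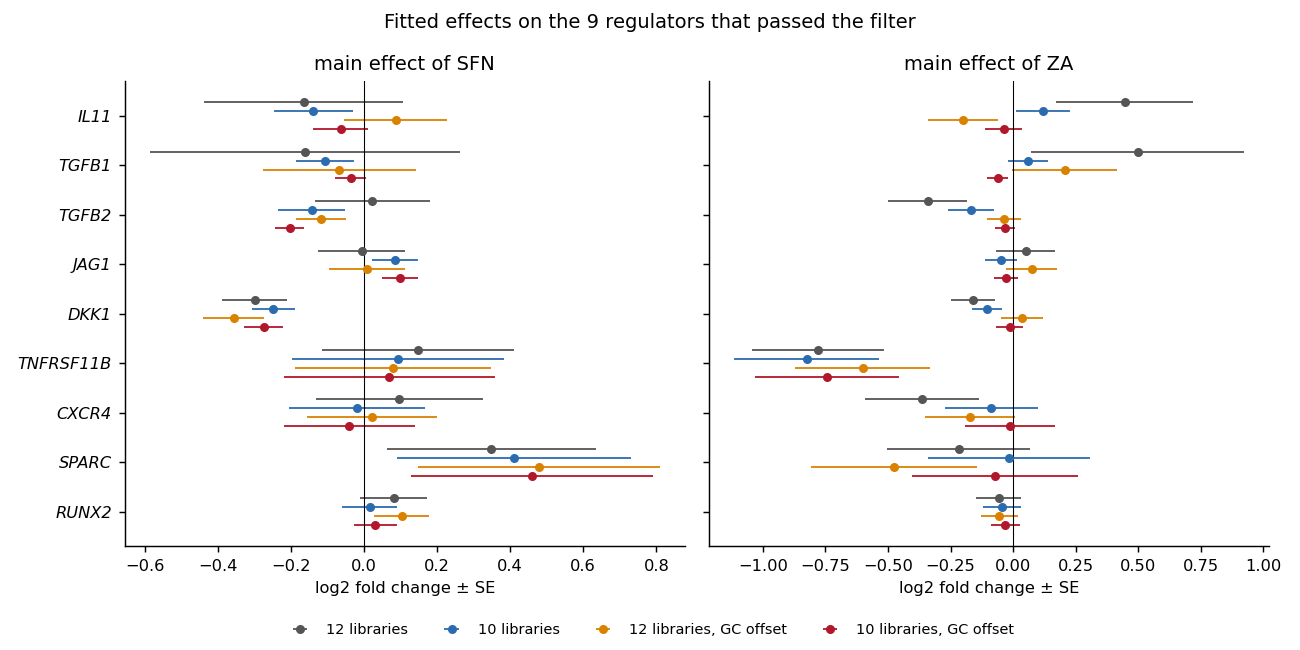
Log2 fold change ± SE for the main effects of SFN and of ZA on the 9 regulators that passed the filter, from 4 fits that differ in libraries and GC offset. DKK1 lies left of 0 for SFN in all 4 (from -0.36 with 12 libraries and the offset to -0.25 with 10 and no offset), while the ZA estimate of TGFB1 moves from 0.50 to -0.06.

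The other genes of these pathways were followed in 10 lists by role, 128 genes of which 98 passed the filter. None of them was called in the fit of 12 libraries in SFN+ZA against vehicle, for the main effect of SFN or for the main effect of ZA (edgeR, 0.0% of all genes in each). The unadjusted p was under 0.05 for 5, 2 and 16 of the 98 (5.1%, 2.04% and 16.3%), beside 4.91%, 2.64% and 17.8% of all genes tested, and DESeq2 called 0 of the 98 in each. The median log2 fold change over all lists in SFN+ZA against vehicle was -0.01, beside 0.01 over all genes tested. With 10 libraries and the GC offset, 99 entered. In SFN+ZA against vehicle 2 were called higher and 2 lower (3.34% of all genes called, with 2.49% of all genes higher). For SFN 2 were called higher and 1 lower (0.808%, with 0.502% of all genes higher), and for ZA 0 (1.0%). The unadjusted edgeR p was under 0.05 for 18, 19 and 10 of the 99 (18.2%, 19.2% and 10.1%). Over all genes these shares were 18.3%, 13.5% and 16.6%.

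Among osteoclast-acting and bone metastasis signature factors, 16 of 21 were tested, and the 2 called higher were VEGFA and LIF. VEGFA, the angiogenic factor, measured 274 ± 49.3 CPM in vehicle, 282 ± 47.2 in SFN, 306 ± 45.2 in ZA and 386 ± 41.4 in SFN+ZA (SD over 3 libraries). In the 10-library offset fit SFN+ZA against vehicle gave 0.35 ± 0.07 (edgeR adjusted p = 0.012) and the main effect of SFN 0.27 ± 0.05 (0.018). LIF, a cytokine that shares the receptor subunit gp130 (IL6ST) with interleukin-11, gave 0.41 ± 0.11 (0.044) and 0.34 ± 0.07 (0.048). In the 12-library fit VEGFA was at 0.49 ± 0.18 in SFN+ZA against vehicle and did not pass (adjusted p = 0.86). Without the offset, leaving out 1 of the 12 libraries gave LIF 0.48 to 1.03 in SFN+ZA against vehicle (lowest edgeR adjusted p = 0.26). For SFN it gave LIF -0.0013 to 0.40 (lowest edgeR adjusted p = 0.97). In the offset fit, leaving out 1 ZA or SFN+ZA library gave VEGFA edgeR adjusted p of 0.0021 to 0.067 in SFN+ZA against vehicle. For SFN it gave 0.0037 to 0.069. The values of LIF were 0.0091 to 0.18 and 0.015 to 0.13. Over all 10 fits with 1 more library left out, VEGFA log2 fold changes were 0.25 to 0.46 and 0.22 to 0.32. Those of LIF were 0.32 to 0.47 and 0.29 to 0.38. In some of these fits vehicle or SFN had 1 library. The list as a whole did not lean one way in SFN+ZA against vehicle in the offset fit: 8 members lay above 0 and 8 below. For SFN, 10 lay above 0 and 6 below. There 9 of 16 had an unadjusted edgeR p under 0.05 (56.2%, beside 13.5% of all genes). In the 12-library fit it was 1 of 16 (6.25%, beside 2.64%). The shares of the other lists for SFN in the offset fit ran from 0.0% to 60.0% (3 of 5, bone matrix and osteomimicry). The list was not tested as a set.

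In the osteoprotegerin and RANK axis, where all 7 genes were tested, TNFSF10 was called lower. It encodes TRAIL, a death ligand that osteoprotegerin also binds. TNFSF10 measured 56.6 ± 7.09 CPM in vehicle, 62.7 ± 26.1 in SFN, 48.5 ± 5.96 in ZA and 37.2 ± 3.0 in SFN+ZA (SD over 3 libraries). The offset fit gave -0.44 ± 0.09 in SFN+ZA against vehicle (edgeR adjusted p = 0.012) and -0.30 ± 0.06 for SFN (0.032). Leaving out 1 ZA or SFN+ZA library gave 0.0035 to 0.074 and 0.011 to 0.11. Over all 10 fits with 1 more library left out, log2 fold changes were -0.53 to -0.35 and -0.35 to -0.26. In some of these fits vehicle or SFN had 1 library. The 12-library value in SFN+ZA against vehicle was -0.60 ± 0.25 (adjusted p = 0.86). For SFN without the offset, leaving out 1 of the 12 libraries gave TNFSF10 -0.33 to -0.032 (lowest edgeR adjusted p = 0.885). Of the bone matrix and osteomimicry genes 5 of 12 were tested. COL1A2, a chain of the type I collagen that forms most of the bone matrix, measured 16.5 ± 1.57 CPM in vehicle, 12.6 ± 2.09 in SFN, 16.3 ± 0.709 in ZA and 12.2 ± 0.823 in SFN+ZA. It was called lower in SFN+ZA against vehicle (-0.48 ± 0.12, edgeR adjusted p = 0.046), and was at -0.36 ± 0.09 for SFN without passing (0.062). For the call, leaving out 1 ZA or SFN+ZA library gave 0.025 to 0.18. Its log2 fold change was -0.56 to -0.39 over all 10 fits with 1 more library left out.

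The remaining 7 lists had no called member in either fit, and the gene with the lowest unadjusted p in SFN+ZA against vehicle with 12 libraries is given for each, as a log2 fold change. Among 13 TGF-beta receptors, SMADs and feedback genes it was the co-receptor TGFBR3 (-0.48 ± 0.23), with 6 members above 0 and 7 below. Among 13 genes of latent TGF-beta storage and activation it was thrombospondin 1 (THBS1, -0.20 ± 0.12), with 5 above 0 and 8 below. The 9 genes of PTHrP and IL-11 signalling were led by the receptor IL11RA (0.73 ± 0.39), whose mean was 3.20 ± 0.351 CPM with vehicle and 5.32 ± 0.967 CPM with SFN+ZA. The Notch pathway (12 tested) was led by the sheddase ADAM10 (-0.35 ± 0.22) and the Wnt antagonists and their receptors (9 tested) by DKK3 (-0.40 ± 0.31). RUNX2 partners and bone transcription factors (7 tested) were led by ATF4 (0.36 ± 0.30), and the chemokine axis and homing adhesion genes (7 tested) by the adhesion molecule VCAM1 (-0.88 ± 0.33). The adjusted p of each was 0.86 (edgeR).

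For each regulator tested, the protein-coding gene of 1 CPM or more with the most similar log2 CPM over the 12 libraries was found among about 11945 candidates. IL11 was most like MACROD1 (Pearson r = 0.99 over 12 libraries, 0.95 over the 10), TGFB1 like CDC42EP1 (0.999 and 0.979) and TGFB2 like PDCD10 (0.98 and 0.97). The transcripts of MACROD1 and CDC42EP1 hold 65.6% and 63.2% GC and that of PDCD10 39.8%, 0.172 to 4.41 percentage points from the regulator each resembles. The other 6 partners lay 1.18 points (SUPT3H, beside TNFRSF11B) to 11.97 points (TNFSF15, beside SPARC) away. JAG1 was most like RAD54L (0.98 and 0.88), DKK1 like F11R (0.93 and 0.87), RUNX2 like HIVEP1 (0.95 and 0.92) and CXCR4 like BBIP1 (0.95 and 0.87). TNFRSF11B was most like SUPT3H (0.86 and 0.85) and SPARC like TNFSF15 (0.90 and 0.89). Among the regulators themselves IL11 and TGFB1 were the most alike (0.97 and 0.90). These points share libraries and GC trends, and the values describe likeness only.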

How the data were processed

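Per the labels' protocols, total RNA was column-purified from trypsin-harvested cells and prepared with Illumina methods. The authors deposited 1 table of raw read counts per gene, FPKM values, log2 fold changes and p-values with adjusted p-values; group means in the same table were not used here. Per the submitters' processing notes, HISAT2 was used (no version is listed) with GRCh37/hg19; the counter and its strand setting are not given in the sources used here. All per-sample columns were mapped to a library.

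The regulators, role lists and tests were chosen with earlier results of these data known. Deposited counts of genes passing filterByExpr (minimum count 10) entered edgeR 4.0.16 (R 4.3.3): TMM scaling, group means over 12 libraries, robust quasi-likelihood F test, two-sided, Benjamini-Hochberg over all genes, threshold 0.05. CPM values use TMM-scaled totals. An error after ± is the SD of a CPM mean or the SE of a log2 fold change. DESeq2 1.42.0 was an alternative, as were other filters and size factors, compared groups alone, a replicate block, and leaving out libraries. The fits with GC offsets, their spans and their leave-one-out fits, and other pseudocounts for the permutation test, were chosen after seeing the data. The offset was a lowess trend (span 0.3) of each gene's deviation on GC content, taken from GENCODE 29 transcripts, for the 97.0% of tested genes matched. Exact permutations exchanged libraries within the level of the other compound, on log2(CPM + 0.5), for 20 tests. The code was tested on simulated counts for 12 libraries without GC trends. False calls in the 10-library offset fit were not tested. Named genes were all regulators, the gene most like each, and the called members of each role list or, with none, the member with the lowest unadjusted p in SFN+ZA against vehicle. The deposited FPKM values gave levels between genes; the library totals behind them lay within 3.67% of the TMM totals.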

Additional observations from a re-analysis of the deposited data

How the results depend on the processing

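Of 1092 alternative values for 48 results on the regulators and other named genes, 1006 kept direction and side of the threshold and 63 changed sign, none of them a value that passed with 12 libraries. A call was gained in 22, of which 2 (TGFB2 for SFN, at both spans of the GC offset) also changed sign, and 3 lost one, all exact permutations of DKK1 for ZA. DKK1 kept its negative sign for SFN, and TNFRSF11B its negative and PTHLH its positive sign for ZA, in every setting run. Whether the replicate numbers pair the libraries was not settled. Of 18 same-number pairs 9 correlated above 0.1 (-0.53 to 0.65), and 6 of 12 libraries correlated best with their own number. These correlations also carry each library's GC trend, so they cannot decide it. The fit with a replicate block called 0 genes in each of the 8 comparisons, as without it; with the block, the GC offset and 10 libraries it called 166 genes in SFN+ZA against vehicle, 10 for SFN and 31 for ZA, and no regulator (lowest adjusted p = 0.10). Of the calls on VEGFA, LIF, TNFSF10 and COL1A2 that fit kept TNFSF10 in SFN+ZA against vehicle (0.042), and the GC offset with 12 libraries kept none.

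Counts over all genes, 0 in each comparison with 12 libraries, moved as follows. DESeq2 called 21 in SFN+ZA against vehicle, 6 in SFN+ZA against SFN and 15 for ZA. Leaving out 1 library gave 0 to 19 in SFN+ZA against vehicle (19 without SFN 2) and 0 elsewhere, and 10 libraries gave 52 there, 5 for SFN and 5 for ZA. The GC offset gave 1 in SFN+ZA against vehicle with 12 libraries. With 10 libraries, at spans of 0.3 and 0.6, it gave 513 and 507 there, 4 and 2 in SFN against vehicle, 21 and 21 in ZA against vehicle, 30 and 31 in SFN+ZA against SFN, 10 and 10 in SFN+ZA against ZA, 124 and 123 for SFN, and 154 and 148 for ZA.

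Values that changed sign are log2 fold changes, and the cause was not tested. With 10 libraries and no offset, TGFB2 was -0.028 in SFN against vehicle and -0.14 for SFN, JAG1 0.11 in SFN against vehicle, and IL11 and TGFB1 -0.018 and -0.046 in SFN+ZA against vehicle. The GC offset with 12 libraries, then with the block, gave TGFB2 -0.041 and -0.041 in SFN against vehicle and -0.12 and -0.12 for SFN, DKK1 0.035 and 0.037 for ZA and 0.17 and 0.17 for the interaction, and IL11 0.093 and 0.080 in SFN against vehicle, -0.11 and -0.11 in SFN+ZA against vehicle, -0.21 and -0.19 in SFN+ZA against SFN, 0.086 and 0.083 for SFN, and -0.20 and -0.19 for ZA. The offset with 10 libraries at spans of 0.3 and 0.6, then with the block, gave TGFB2 -0.21, -0.21 and -0.21 in SFN against vehicle and -0.20, -0.20 and -0.20 for SFN, and JAG1 0.13, 0.13 and 0.13 in SFN against vehicle. In SFN+ZA against vehicle it gave IL11 -0.10, -0.10 and -0.083 and TGFB1 -0.10, -0.093 and -0.11, and in SFN+ZA against SFN TGFB1 -0.052, -0.041 and -0.065; for ZA it gave IL11 -0.038, -0.038 and -0.019 and TGFB1 -0.061, -0.054 and -0.075, and with the block DKK1 0.019. Leaving out 1 library gave TGFB2 -0.056 to 0.45 in SFN against vehicle and -0.16 to 0.10 for SFN, the DKK1 interaction -0.15 to 0.027, TGFB1 -0.71 to 0.14 in SFN against vehicle and -0.030 to 0.61 in SFN+ZA against vehicle, IL11 -0.0015 to 0.47 there, JAG1 -0.19 to 0.10 in SFN against vehicle, and, for SFN, IL11 -0.31 to 0.00016, TNFRSF11B -0.0025 to 0.25 and LIF -0.0013 to 0.40. PTHLH, TNFRSF11B and SPARC rest on at most 34 counts a library, so only large differences were detectable.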

Other observations

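The cells carried several of the receptors and partners through which the regulators act, and lacked others. The shared receptor subunit IL6ST had a median of 49.4 FPKM over the 12 libraries, beside 0.930 FPKM for IL11RA, which binds interleukin-11 itself. The TGF-beta receptors TGFBR2 and TGFBR1 had medians of 35.7 and 19.7 FPKM, and the Wnt co-receptors LRP5 and LRP6, the targets of DKK1, 68.5 and 4.63 FPKM. NOTCH2 (32.9 FPKM) and NOTCH1 (12.9 FPKM), receptors for JAG1, exceeded NOTCH3 (0.249 FPKM). The RUNX2 partner CBFB was at 15.7 FPKM, and GLI2, a transcription factor known to induce PTHLH, at 2.18 FPKM. The PTHrP receptor PTH1R was at 0.427 FPKM, and CXCL12, the ligand of CXCR4, had 0 counts in all 12 libraries. The osteoclast-acting chemokine IL8 (CXCL8) was at 28.6 FPKM, while the bone matrix genes SPP1, IBSP and BGLAP had medians of at most 0.108 FPKM.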
